A study of Rattus norvegicus with 8 samples.

Results

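C1q is the recognition molecule of the classical complement pathway, and it is assembled from the A, B and C chains encoded by C1qa, C1qb and C1qc. The level of these 3 genes was followed in rat spinal cord below an injury, among 32883 Ensembl gene identifiers in the table. They were taken by identifier: C1qa as ENSRNOG00000012807, C1qb as ENSRNOG00000012804 and C1qc as ENSRNOG00000012749. The chains were selected on the injured against uninjured comparison of these same molecule counts, whose earlier results were known. All differences between the groups given here therefore describe the chains and do not test them. The table carries no gene symbols and the reference table paired none of its identifiers with one, so the chain names rest on the identifiers as given and were not checked against other genes. All 3 chains passed the filter on low counts, which kept 4159 genes. C1qa did not pass once injured replicate 1 or injured replicate 2 was left out. Its presence among the tested genes thus depended on libraries of the group where it averaged higher.

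Each C1q molecule holds the A, B and C chains in equal numbers. A collagen-like stalk carries globular heads that bind antibody in immune complexes, dying cells and other targets, and binding activates the proteases C1r and C1s. In the healthy brain and spinal cord most C1q is made by microglia, the resident macrophages. In mice, C1q is known for tagging synapses that microglia remove during development and in models of neurodegeneration.

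The injured group held 4 libraries from Sprague Dawley rats at 4 days after a hemisection, a cut through one side of the cord, at thoracic level 9. The uninjured group held 4 libraries from Sprague Dawley rats without spinal cord injury. Lower lumbar spinal cord, which lies below the cut and was itself not cut, was read with CEL-Seq2, a method that counts tagged molecules at the 3' end of polyadenylated RNA. The labels do not say whether uninjured rats had a sham operation, which side was sampled, how old the rats were or whether each library came from a separate animal, so the spread between libraries may be partly technical.

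Libraries held between 119808 and 405537 molecules, and number 3 was the shallowest library of either group. Its 10 most abundant genes took 18.5% of molecules in the injured and 24.6% in the uninjured group, against 8.88% to 13.3% in the other 6 libraries. The highest count of any gene hardly differed between libraries, from 3989 to 4080. The top gene therefore took a larger share in the shallowest library of each group. How far this accounts for the shares of the 10 genes was not tested, and no difference in make-up is read from them. Tissue and cell type markers could not be looked up without symbols. In whole tissue, more cells of a type and more RNA per cell cannot be told apart.

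The chain genes lie beside one another on chromosome 5 in the RefSeq annotation of the rat assembly GRCr8, in the order C1qb, C1qc, C1qa, with no other annotated gene between them. The counts were made on another build, Rnor_6.0. Because the mean scaled count of each of these neighbours was greater in injured libraries, the RefSeq promoter windows of C1qb and C1qa, 2 of the 3 chains, are shown. Each spans 250 bases before and 50 bases after the annotated start on the minus strand of GRCr8, and is written 5′ to 3′ along the gene. Capitals mark GAGGAA on either strand, the core of sites for PU.1, a transcription factor of microglia and other myeloid cells. C1qb lies at chr5:154407778-154408077 and C1qa at chr5:154419884-154420183.
C1qb: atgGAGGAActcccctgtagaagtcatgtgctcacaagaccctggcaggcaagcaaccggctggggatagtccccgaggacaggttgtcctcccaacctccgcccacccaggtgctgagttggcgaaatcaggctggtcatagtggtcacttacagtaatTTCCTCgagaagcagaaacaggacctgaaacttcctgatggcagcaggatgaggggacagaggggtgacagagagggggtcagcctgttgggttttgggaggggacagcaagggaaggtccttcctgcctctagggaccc
C1qa: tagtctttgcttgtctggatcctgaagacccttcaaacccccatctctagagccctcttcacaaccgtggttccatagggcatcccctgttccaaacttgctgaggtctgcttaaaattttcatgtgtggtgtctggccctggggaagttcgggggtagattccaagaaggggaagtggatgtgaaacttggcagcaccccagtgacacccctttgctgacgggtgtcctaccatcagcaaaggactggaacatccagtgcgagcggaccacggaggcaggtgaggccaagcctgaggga

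The C1qb window held GAGGAA at 2 places, starting 247 and 90 bases before the annotated start and lying on opposite strands. The C1qa window held none. Of 33469 RefSeq promoter windows of the same length, 27.6% held GAGGAA at least once on either strand, so a window with any match is common. The share of windows with 2 or more matches was not counted. Of the 4 other motifs searched on both strands, TTCNNNGAA, the palindrome read by STAT factors, matched once, in the C1qa window 90 bases before the start, and 8.87% of windows held it. TATAAA (in 14.2% of windows), CCAAT (37.5%) and CACGTG (6.42%) matched neither window, and no match overlapped another. These matches describe letters in the windows and do not show binding.

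C1qb encodes the B chain and was the most abundant of the chains in all 8 libraries. Injured replicates 1 to 4 held 187, 353, 57 and 186 C1qb molecules, and uninjured replicates 1 to 4 held 40, 60, 15 and 68. Scaled as CPM, which sets a count against the library's molecules in tested genes after TMM correction, these were 517, 943, 444 and 784 CPM in injured and 103, 264, 174 and 163 CPM in uninjured libraries. The groups did not overlap, since the lowest injured library stood 1.68-fold above the highest uninjured one. C1qb averaged 672 ± 233 CPM in injured and 176 ± 66.7 CPM in uninjured libraries (SD, n = 4 each). Among the 4159 tested genes ordered by mean CPM it held place 230 in injured and place 1093 in uninjured libraries. These places compare molecule counts from 3' ends, which are not divided by transcript length.

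C1qc encodes the C chain and had the tightest injured group. Injured replicates 1 to 4 held 97, 86, 25 and 53 C1qc molecules, and uninjured replicates 1 to 4 held 17, 12, 2 and 21. These were 268, 230, 195 and 224 CPM in injured and 43.7, 52.9, 23.2 and 50.4 CPM in uninjured libraries. Every injured library lay far above every uninjured one, the lowest injured at 3.68-fold the highest uninjured, and the injured libraries stayed within a 1.38-fold range. The mean was 229 ± 30.1 CPM in injured and 42.5 ± 13.5 CPM in uninjured libraries (SD, n = 4 each). C1qc held place 833 of 4159 by mean CPM in injured and place 3516 in uninjured libraries. The value of uninjured replicate 3 rests on 2 molecules.

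C1qa encodes the A chain and was the least counted of the chains, at 89 molecules over the 4 injured and 30 over the 4 uninjured libraries. Injured replicates 1 to 4 held 20, 29, 4 and 36 C1qa molecules, and uninjured replicates 1 to 4 held 8, 9, 2 and 11. These were 55.3, 77.5, 31.2 and 152 CPM in injured and 20.6, 39.7, 23.2 and 26.4 CPM in uninjured libraries. The groups overlapped: injured replicate 3, with 4 molecules, lay below uninjured replicate 2, and injured replicate 4 stood well above the other injured libraries. C1qa averaged 78.9 ± 52.1 CPM in injured and 27.4 ± 8.48 CPM in uninjured libraries (SD, n = 4 each). With 3 molecules worth 23.4 CPM in injured replicate 3 and 34.8 CPM in uninjured replicate 3, these values lie near the limit of detection.

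**Figure D1:**
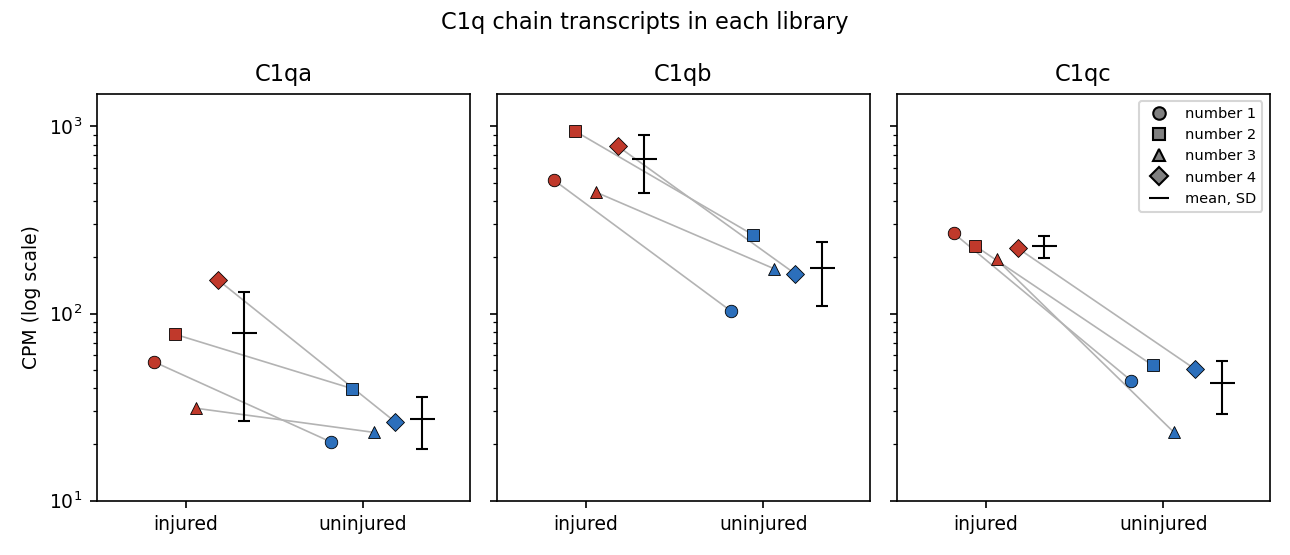
CPM (log scale) of C1qa, C1qb and C1qc in each of the 4 injured and 4 uninjured libraries; grey lines join libraries with the same replicate number, and black marks give the mean and SD. The injured and uninjured points are apart for C1qb and C1qc and overlap for C1qa, where injured replicate 3 (31.2 CPM) lies below uninjured replicate 2 (39.7 CPM).

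Summed over the 3 chains, injured replicates 1 to 4 stood at 840, 1250, 670 and 1160 CPM of C1q, and uninjured replicates 1 to 4 stood at 167, 357, 220 and 240 CPM. The lowest injured library was 1.88-fold above the highest uninjured one. The means were 980 ± 271 CPM in injured and 246 ± 80.1 CPM in uninjured libraries (SD, n = 4 each), a ratio of 3.98. As a share of all molecules in a library this was 0.0928% ± 0.0292 in injured and 0.0230% ± 0.00830 in uninjured libraries (SD, n = 4 each). In the shallowest library of each group the exact 95% binomial interval of that share ran from 0.0449% to 0.0694% for injured replicate 3 and from 0.00955% to 0.0248% for uninjured replicate 3, covering counting error only.

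The make-up of the C1q molecules, here the counted transcripts of the 3 genes and not the protein, overlapped between the groups. For C1qa the overlap came from injured replicate 4 alone, at 13.1%. Injured replicates 1 to 3 had C1qa shares of 6.58%, 6.20% and 4.65%, below the 10.5% to 12.3% of the uninjured libraries. C1qb made up 67.7% ± 5.77 of C1q molecules in injured and 70.6% ± 7.54 in uninjured libraries (SD, n = 4 each). C1qc made up 24.7% ± 6.84 in injured and 18.1% ± 6.87 in uninjured libraries, and C1qa 7.63% ± 3.74 in injured and 11.2% ± 0.758 in uninjured libraries (SD, n = 4 each). C1qb led C1qc, and C1qc led C1qa, in 7 of 8 libraries. In uninjured replicate 3, C1qc and C1qa had 2 molecules each. Although the proteins are used in equal numbers, the counted transcripts were not equal, and the 3' capture of each transcript was not measured.

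The C1qc share varied within each group. Injured replicates 1 to 4 had C1qc shares of 31.9%, 18.4%, 29.1% and 19.3%, and uninjured replicates 1 to 4 had 26.2%, 14.8%, 10.5% and 21.0%. Number 1 was the highest of each group. The exact 95% binomial interval ran from 26.7% to 37.5% for injured replicate 1 and ended at 22.2% for injured replicate 2, so these injured libraries differed by more than counting error. In uninjured replicate 3 the interval was 1.30% to 33.1% and holds the value of every other library.

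**Figure D2:**
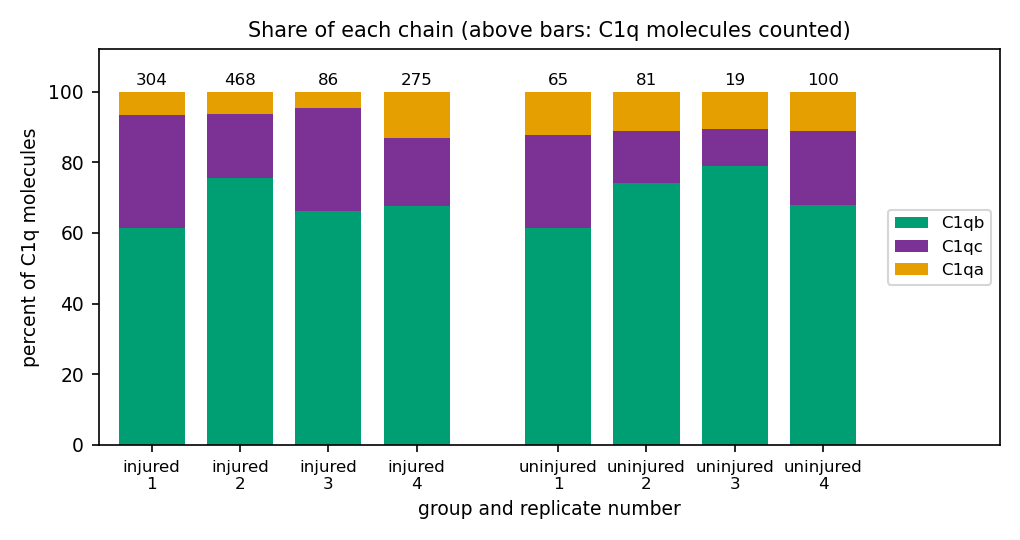
Share of C1qb, C1qc and C1qa among the C1q molecules (counted transcripts, not protein) of each injured and uninjured library, in percent, with the number of C1q molecules above each bar. C1qb takes between 61.5% and 78.9% in all 8 libraries, and the bars rest on 19 to 468 molecules.

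Fitted across all tested genes with edgeR, C1qc was higher in injured than in uninjured libraries by a log2 fold change of 2.33 with a standard error of 0.27, or 5.03-fold (95% interval 3.39 to 7.48). C1qb had a log2 fold change of 1.96 with a standard error of 0.31, or 3.90-fold (95% interval 2.48 to 6.12). C1qa had a log2 fold change of 1.56 with a standard error of 0.43, or 2.95-fold (95% interval 1.58 to 5.51). The intervals of the chains overlap, and their differences from each other were not tested. The median log2 fold change of all 4159 tested genes was -0.01. Ordered by fold change, C1qc held place 10 of 4159, C1qb place 18 and C1qa place 32. Ordered by p, C1qc held place 1, C1qb place 9 and C1qa place 67.

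At a Benjamini-Hochberg adjusted p under 0.05 over all tested genes, C1qb and C1qc were called higher and C1qa was not, which is 2 of 3 chains where 0.986% of tested genes were called higher. No overlap between groups, with all injured libraries above, was found for the same 2 of 3 chains and for 3.08% of tested genes. Since the chains were chosen with this comparison known, nothing is read from these shares. C1qa had the fewest molecules and the largest spread of the chains, with a biological coefficient of variation of 0.326 against 0.291 for C1qb and 0.204 for C1qc in the same fit.

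**Figure D3:**
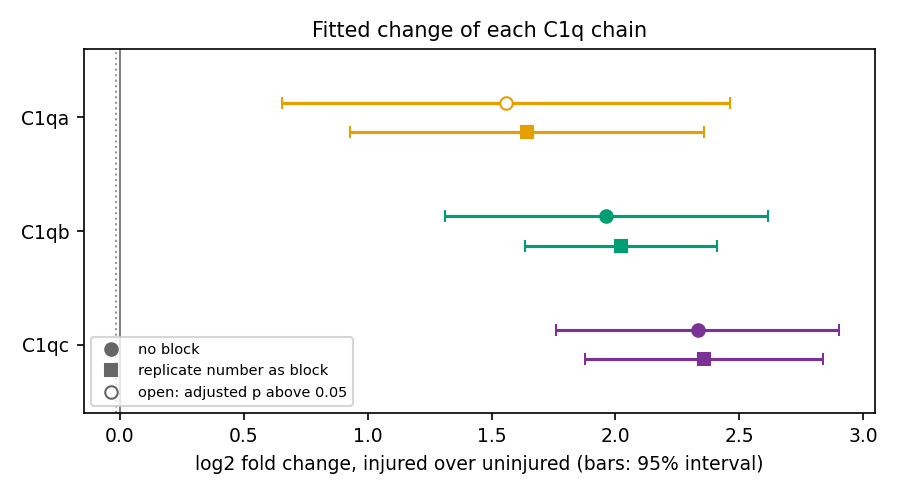
Log2 fold change of each C1q chain, injured over uninjured, with 95% intervals, without (circles) and with (squares) the replicate number as a block; the open circle did not pass the adjusted threshold and the dotted line is the median of all tested genes. All 6 intervals lie above 0, and those with the block are narrower.

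**Figure D4:**
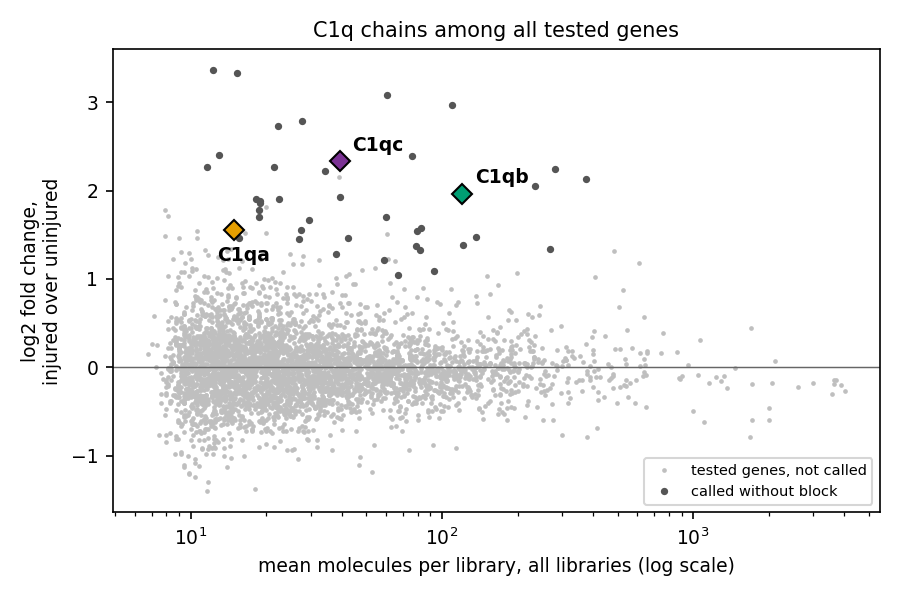
Log2 fold change, injured over uninjured, of the 4159 tested genes against mean molecules per library (log scale), with the 41 genes called without the block in dark grey and the C1q chains as diamonds. C1qc (2.33) and C1qb (1.96) lie among the called genes and C1qa (1.56) at their lower left edge, where counts are low.

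No label says what the replicate numbers mean. Libraries with the same number tended to vary together across genes, so each chain was also set side by side by number. This was weakest for number 3, with a correlation of 0.17, below 0.24 for injured replicate 2 with uninjured replicate 1. Number 3 was also the shallowest library of each group, so depth and pairing cannot be told apart there. C1qb in injured over uninjured libraries was 5.03-fold, 3.57-fold, 2.56-fold and 4.81-fold for numbers 1 to 4. C1qc was 6.13-fold, 4.35-fold, 8.41-fold and 4.44-fold, and C1qa 2.69-fold, 1.95-fold, 1.34-fold and 5.75-fold. All 3 chains were higher in the injured library at all 4 numbers, which held for 10.7% of tested genes. The order of the numbers was not shared: number 3 gave the lowest ratio for C1qb and C1qa and the highest for C1qc. At number 3 the exact 95% counting intervals were 1.43 to 4.86 for C1qb, 2.10 to 73.2 for C1qc (25 against 2 molecules) and 0.193 to 14.9 for C1qa (4 against 2 molecules), so depth does not resolve that order. The C1qa interval also held 1 at number 2, running from 0.901 to 4.69 (29 against 9 molecules). Summed C1q was 5.03-fold, 3.50-fold, 3.04-fold and 4.83-fold higher in injured libraries at numbers 1 to 4.

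With the replicate number as a block, the fold changes moved little and their errors narrowed. The log2 fold change was 2.36 for C1qc (standard error 0.23), 2.02 for C1qb (standard error 0.18) and 1.64 for C1qa (standard error 0.34). C1qb then held place 1 of 4159 by p, C1qc place 3 and C1qa place 62. In this fit all 3 chains were called higher, including C1qa, where 2.26% of tested genes were called higher. The block rests on a pairing inferred from these same counts, not on a label.

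No single library decided the calls of C1qb and C1qc. Their log2 fold changes ran from 1.74 to 2.24 for C1qb and from 2.23 to 2.40 for C1qc over the 8 fits that left out 1 library, and both were called in all 8. Among all tested genes, these fits called between 23 of 3935 (without uninjured replicate 1) and 77 of 4705 (without uninjured replicate 3). Because the chains were chosen on this comparison, their calls here are a description and no separate support. C1qa had its lowest log2 fold change, 1.10, without injured replicate 4, its highest library. Without injured replicate 1 or injured replicate 2 the count filter removed it, and it was called in none of the 6 fits that tested it. With all libraries thinned to 119808 molecules, the median log2 fold change over 10 draws was 2.01 for C1qb and 2.39 for C1qc, and C1qa was below the count filter in every draw.

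**Figure D5:**
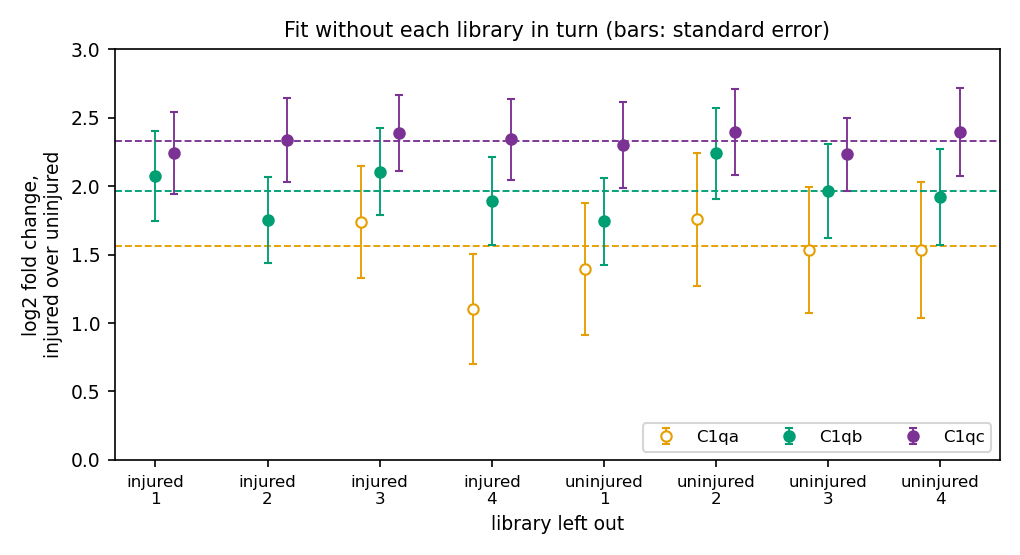
Log2 fold change, injured over uninjured, of each C1q chain when the library named below the axis is left out, with its standard error; filled points passed the adjusted threshold, and dashed lines give the value with all 8 libraries. C1qb and C1qc stay filled throughout, and C1qa is open, lowest at 1.10 without injured replicate 4, and missing without injured replicates 1 and 2.

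The genes whose level was most like the mean of the chains were found by Pearson correlation of log2 CPM over the 8 libraries, which share the group difference and depth. The most alike was ENSRNOG00000016957 (r = 0.98), for which injured replicates 1 to 4 held 48, 54, 16 and 45 molecules and uninjured replicates 1 to 4 held 19, 13, 4 and 20. Next was ENSRNOG00000017914 (r = 0.96), for which injured replicates 1 to 4 held 99, 137, 37 and 87 molecules and uninjured replicates 1 to 4 held 48, 38, 14 and 75. Both were higher in injured libraries. The log2 fold change was 1.55 (standard error 0.27) for ENSRNOG00000016957, close to that of C1qa (1.56), and 1.04 (standard error 0.23) for ENSRNOG00000017914. These were smaller than those of C1qb and C1qc. The 2 genes were picked for likeness to chains chosen on the group difference, so their own difference is no separate result. Neither identifier could be paired with a symbol. In all, 23 of 4156 other tested genes reached an r of at least 0.9.

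By the same measure the chains were not each other's nearest genes. Over the 8 libraries r was 0.89 between C1qb and C1qc, 0.86 between C1qa and C1qb and 0.73 between C1qa and C1qc. Of the 4158 other genes, C1qc stood at place 29 in likeness to C1qb, and C1qb at place 18 in likeness to C1qc. With the group means removed, r was 0.72 between C1qa and C1qb, 0.26 between C1qa and C1qc and 0.14 between C1qb and C1qc over the same 8 libraries. Uninjured replicate 3 held 2 molecules each of C1qa and C1qc. Why some of these values were weak was not tested, and nothing is read from them.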

How the data were processed

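The authors deposited counts, 1 whole number of molecules per Ensembl gene and library, with no normalization. Per the submitters' processing notes, the tools included HISAT2 2.0.4 and HTSeq 0.6.0, and the build was Rnor_6.0. How molecular identifiers were collapsed is not stated there. Groups come from the labels. edgeR 4.0.16 (R 4.3.3) fitted all 4159 genes kept by filterByExpr (minimum count 10, minimum total 15) with TMM factors and a robust quasi-likelihood F test, two-sided, with Benjamini-Hochberg adjustment and a threshold of 0.05. Standard errors come from the fold change and F. The fit was tested on simulated data. DESeq2 1.42.0 and limma 3.58.1 were alternatives.

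The chains, lists and alternatives were chosen with earlier results of these data known. Named genes were the chains and the 2 genes most like their mean over all libraries. The 2 most alike once group means are removed were not named, since identifiers had no symbols. For the same reason the lists of complement and cell type genes, 113 symbols, were not analysed here.

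Libraries with the same replicate number deviated together from their group means (correlations across 4156 genes, chains excluded, 0.17 to 0.45, against -0.39 to 0.24 for different numbers). The ranges overlap, and this check, not a label, is the reason why same-numbered libraries were taken as pairs. Because group means were removed, a positive same-number value pushes the different-number values of that library down. The gap between the ranges is therefore partly built in. The highest count in each library lay between 3989 and 4080, just under the 4096 identifiers that 6 bases allow. The highest chain count, 353, would rise by 4.57% on correction for repeated identifiers. Promoter sequences are from RefSeq (GRCr8).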

Additional observations from a re-analysis of the deposited data

How the results depend on the processing

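C1qb and C1qc kept their direction and stayed called in all 21 alternatives, with log2 fold changes of 1.74 to 2.24 for C1qb and 2.23 to 2.40 for C1qc. C1qa kept its direction in the 17 alternatives that tested it (1.10 to 1.76), and its counts were too low in the other 4, which were the stricter filter (20 molecules in 4 libraries or more), thinning, and leaving out injured replicate 1 or 2. It was called in 3: with no filter on low counts (1.54), with the replicate block (1.64), and with the replicate block without both libraries numbered 3 (1.74), a setting added after seeing the data. The replicate block changed no other chain's call. Leaving out 1 library gave 1.10 to 1.76 for C1qa.

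In the main fit 41 of 4159 tested genes were called. This became 98 of 12968 with no filter and 110 of 4159 with the replicate block. It was 62 of 4660 without both libraries numbered 3, and 383 of 4660 with the replicate block and without that pair. With all libraries thinned to 119808 molecules it was 18.5 of 2165 (medians of 10 draws). The number of genes tested differs between settings, so the counts alone cannot be compared. Leaving out 1 library gave the fewest called genes without uninjured replicate 1 (23 of 3935) and without uninjured replicate 4 (23 of 3932). It gave the most without uninjured replicate 3 (77 of 4705). The ratio of summed C1q, injured over uninjured, stayed between 3.59 and 4.67. Mean shares moved by less than 1 SD, except that of C1qa in uninjured libraries, 10.4% when thinned against 11.2%. That SD was small beside the counting intervals of the single libraries, so little is read from this move. Thinning leaves fewer molecules to test; other causes were not tested. C1qa had the fewest molecules of the chains and was the only chain that the stricter filter and thinning left untested.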
